A study of Mus musculus with 6 samples.

Results

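The Frizzled receptor family was read in arrays of the mouse optic fissure, the ventral groove of the optic cup that closes during eye development. All 10 Frizzled genes, Fzd1 to Fzd10, were taken by gene symbol from the platform annotation. Together they had 26 probe sets, each a group of short probes that reads one stretch of transcript, among 45037 probe sets on the array (18193 genes with a single symbol). Of these 26, 18 lay above the filter on dim signal and were tested, and they covered 9 of the 10 genes, among 27022 probe sets and 12282 genes tested in all.

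The samples were 3 FGFR mutant and 3 control optic fissures from C57BL/6J embryos at E11.5, cut out by laser microdissection. The mutants were Six3Cre+;Fgfr1fx/fx;Fgfr2fx/fx and the controls Six3Cre-;Fgfr1fx/fx;Fgfr2fx/fx, so both groups carried the floxed alleles of these FGF receptor genes and the controls lacked the Cre transgene. Six3Cre acts in the early eye field and ventral forebrain, so cells outside its domain, such as mesenchyme and vessels, keep their receptors. The titles give each group the numbers 8711, 9216 and 9266. They do not say whether a sample came from single embryos or a pool, so p-values cover only the spread among these 6 arrays, part of which may be technical.

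Frizzled proteins are multi-pass membrane receptors whose cysteine-rich outer domain binds Wnt ligands. With the co-receptors Lrp5 and Lrp6 they signal through beta-catenin, and with partners such as Ror2, Vangl2 and the Celsr cadherins they take part in planar cell polarity. Sequence likeness places them in the branches Fzd1/2/7, Fzd5/8, Fzd4/9/10 and Fzd3/6. In the mouse eye, Fzd5 is known from retinal progenitors and its loss disturbs ocular development, and Fzd4 is the receptor for Norrin in retinal vessel growth.

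The promoter windows of Fzd5 and Fzd4, which differed most among the members with a window, are shown with that of Fzd1, whose composition was different. Each window runs from 250 bases before to 50 bases after the gene's start on GRCm38.p6, a build that belongs to RefSeq and not to the array files, and 6 members had one. Capitals mark matches on either strand to the GC box GGGCGG, the ETS core CCGGAA, the TCF/LEF words CTTTGA and CTTTGT, the E-box CACGTG and the TATA box TATAAA. Adjoining GC boxes overlap in places. The windows are chr1:64737701-64738000 on the minus strand for Fzd5, chr7:89404116-89404415 on the plus strand for Fzd4 and chr5:4758167-4758466 on the minus strand for Fzd1.
Fzd5: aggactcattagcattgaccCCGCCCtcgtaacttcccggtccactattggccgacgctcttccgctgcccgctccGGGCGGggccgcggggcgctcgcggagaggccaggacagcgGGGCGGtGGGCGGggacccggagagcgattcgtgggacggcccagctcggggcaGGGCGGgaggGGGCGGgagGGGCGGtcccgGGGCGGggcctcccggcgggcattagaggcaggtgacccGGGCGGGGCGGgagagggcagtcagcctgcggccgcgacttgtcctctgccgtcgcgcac
Fzd4: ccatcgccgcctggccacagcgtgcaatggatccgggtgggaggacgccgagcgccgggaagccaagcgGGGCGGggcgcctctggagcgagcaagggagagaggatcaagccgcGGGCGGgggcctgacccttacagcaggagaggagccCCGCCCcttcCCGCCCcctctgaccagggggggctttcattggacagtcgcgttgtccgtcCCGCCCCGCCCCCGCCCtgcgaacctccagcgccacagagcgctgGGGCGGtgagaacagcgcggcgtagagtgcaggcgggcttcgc
Fzd1: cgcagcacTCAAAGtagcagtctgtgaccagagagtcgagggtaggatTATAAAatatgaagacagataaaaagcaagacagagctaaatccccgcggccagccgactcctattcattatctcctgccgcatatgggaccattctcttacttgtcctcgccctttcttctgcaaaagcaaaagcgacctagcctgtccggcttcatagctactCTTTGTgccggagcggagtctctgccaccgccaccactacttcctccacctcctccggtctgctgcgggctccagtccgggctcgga

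Fzd5, lower in the mutants, and Fzd4, higher in them, had windows of one kind, with 75.7% and 72.7% G or C and 10 and 8 GC boxes. The Fzd1 window had 54% G or C, 0 GC boxes, 1 TATA box and 2 TCF/LEF words. The Fzd7 window held 7 GC boxes and 1 TCF/LEF word, that of Fzd9 1 GC box and 1 E-box, which overlap, and that of Fzd10 1 GC box and 1 ETS core. The Fzd7, Fzd9 and Fzd10 windows had 66.7%, 78% and 77.7% G or C, so a high content was not particular to Fzd5 and Fzd4. Among 32851 windows of the same length, 35.7% held a GC box, 31.2% a TCF/LEF word, 14.9% an ETS core, 13.6% a TATA box and 7.15% an E-box, and the median G or C content was 52.7%. These matches describe the letters in the windows and show no binding.

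One array stood apart before any gene was compared. The mutant 8711 array had a median intensity of 18.1, against 28.7 to 34.6 in the other 5, and a Gapdh 3 prime to 5 prime signal ratio of 93.6, against 4.26 to 14.96. Its Actb ratio was also the highest, but by a smaller gap, at 14.8 against 6.03 to 12.1 in the others. Mutant 8711 correlated with the others at 0.836 on average, and each of the others at 0.917 to 0.932. The difference of each tested Frizzled gene is therefore also given without it. Intensities below are the authors' scaled linear values, log2 differences are mutant minus control on log2(intensity + 1.7), and levels are not compared between probe sets, which differ in how brightly they hybridise. In bulk tissue, fewer cells of a type and less RNA per cell cannot be told apart.

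Of the Frizzled genes, Fzd6 and Fzd4 had higher values in the mutant optic fissure and Fzd5 lower ones, with every mutant array on one side of every control array. Fzd6 was 2.67-fold higher, Fzd4 2.07-fold higher and Fzd5 3.56-fold lower on the fitted scale. No Frizzled gene passed an adjusted p of 0.05 in limma (0 of 9), and neither did any of the 12282 genes (0%), so these are differences in level that the test across all genes did not call. At an unadjusted limma p under 0.05, 2 of the 9 were higher and 1 lower, beside 4.4% of all genes higher and 2.52% lower. The groups did not overlap for 2 higher genes and 2 lower ones, Fzd5 and Fzd8, beside 9.44% and 5.43% of all genes. The median log2 difference was -0.01 over the 9 genes and 0.03 over all genes, and -0.05 and 0.02 without mutant 8711.

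**Figure D1:**
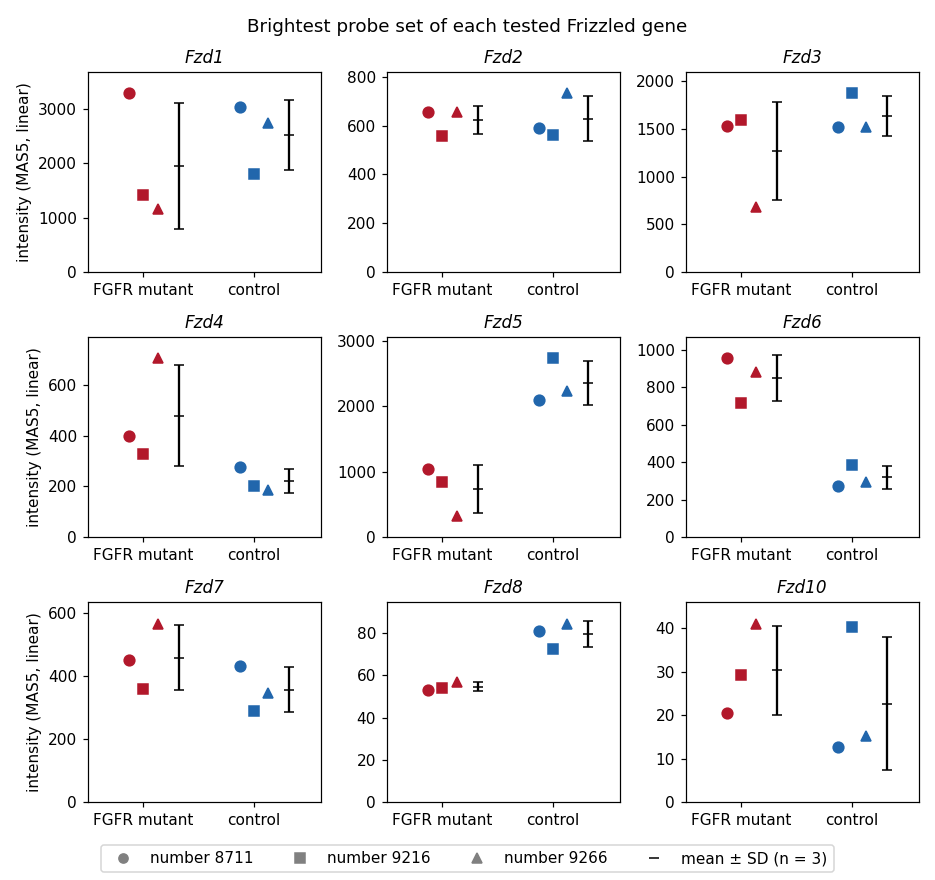
Linear MAS5 intensity of the brightest probe set of each of the 9 tested Frizzled genes in the 3 FGFR mutant arrays (left, red) and the 3 control arrays (right, blue), with marker shape for the title number and black bars for mean ± SD (n = 3). The groups are separate for Fzd4, Fzd5, Fzd6 and Fzd8, and mutant 8711 is the highest array of the Fzd1 panel.

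Fzd6 works in planar cell polarity, among others in the patterning of hair in the mouse. It had intensities of 954, 716 and 882 in mutant arrays 8711, 9216 and 9266, against 274, 388 and 296 in the controls of the same numbers. The lowest mutant value lay well above the highest control value. The means were 851 ± 122 in the mutants and 319 ± 60.3 in the controls (SD, n = 3 each), a log2 difference of 1.42 (SE 0.22, 95% interval 0.89 to 1.94). Its limma p of 3.89e-04, adjusted to 0.356, was rank 22 of the 12282 genes. Without mutant 8711 the difference was 1.33 (SE 0.23, adjusted p = 0.163). The other Fzd6 probe sets were under the filter, at 2.9 to 19.1 in the mutants and 1.1 to 20.7 in the controls.

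Fzd3, the closest relative of Fzd6, is known for its part in axon guidance and in neural tube closure together with Fzd6. It did not share the direction of Fzd6. Its brightest probe set had 1538, 1591 and 679 in mutant arrays 8711, 9216 and 9266, against 1517, 1876 and 1522 in the controls. The mutant 9266 array was low and the other mutant arrays lay within the range of the controls. The log2 difference was -0.46 (SE 0.35, 95% interval -1.28 to 0.36, adjusted p = 0.852). It was -0.65 without mutant 8711 and -0.06 without mutant 9266. All 5 tested Fzd3 probe sets had lower values in the mutants, from -0.23 to -0.94, and 4 of the 5 did without mutant 8711. In 1421157_at the groups did not overlap, with 76.5, 87.7 and 81.7 in the mutants, against 183, 131 and 165 in the controls, a difference of -0.94 (SE 0.25, adjusted p = 0.614). The groups were also separate in 1449730_s_at, at 359, 351 and 192 in the mutants and 492, 452 and 445 in the controls. These probe sets read 1 gene in the same arrays and are not independent.

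By brightest probe set, Fzd5 had the largest difference of the 9 tested Frizzled genes. Its intensities were 1043, 843 and 324 in mutant arrays 8711, 9216 and 9266, against 2101, 2734 and 2243 in the controls. All mutant arrays were lower than all controls, and mutant 9266 was the lowest. The means were 737 ± 371 in the mutants and 2359 ± 332 in the controls (SD, n = 3 each), a log2 difference of -1.83 (SE 0.43, 95% interval -2.86 to -0.80). The limma p was 0.00426, rank 136 of all genes, with an adjusted p of 0.536. It was -2.16 (SE 0.37, adjusted p = 0.163) without mutant 8711 and -1.32 without mutant 9266. The second, dim Fzd5 probe set was also lower in each mutant array, at 17.1, 21.1 and 9.9 in the mutants and 42.6, 35.4 and 28.9 in the controls, a difference of -1.11 (SE 0.38).

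Fzd8, which shares the branch of Fzd5 and acts beside it in the mouse optic cup, had a smaller difference at low intensity. Its brighter probe set had 52.9, 54.1 and 56.8 in mutant arrays 8711, 9216 and 9266, against 80.9, 72.5 and 84.4 in the controls. The groups were separate and each was narrow. The log2 difference was -0.52 (SE 0.25, 95% interval -1.12 to 0.08, adjusted p = 0.852), and -0.50 without mutant 8711. The other Fzd8 probe set had 64.0, 60.7 and 48.1 in the mutants and 93.0, 57.1 and 53.0 in the controls, which overlapped, with a difference of -0.19 (SE 0.33).

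Fzd4, the Norrin receptor, had 401, 329 and 705 in mutant arrays 8711, 9216 and 9266, against 275, 202 and 187 in the controls. Each mutant array was above each control, and mutant 9266 was the highest. The means were 478 ± 200 in the mutants and 221 ± 47.0 in the controls (SD, n = 3 each), a log2 difference of 1.05 (SE 0.33, 95% interval 0.26 to 1.84). Its limma p was 0.0163, rank 367, with an adjusted p of 0.743. The difference was 1.14 without mutant 8711 and 0.73 without mutant 9266. A second probe set, 1419301_at, had 67.4, 775 and 1134 in the mutants, against 172, 249 and 165 in the controls. There mutant 8711 was the lowest of all arrays while the other mutants were the highest. Its difference was 1.03 (SE 1.0) with all arrays and 2.28 (SE 0.27, limma p 4.11e-05, adjusted p = 0.13) without mutant 8711.

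**Figure D2:**
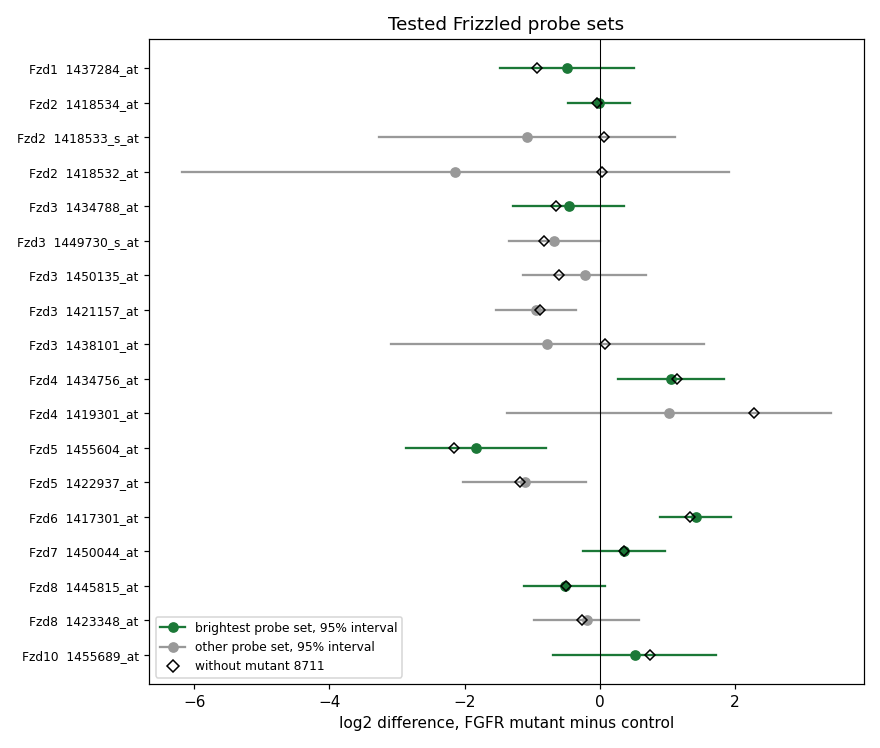
Log2 difference, FGFR mutant minus control, for the 18 tested Frizzled probe sets, brightest first within a gene, with 95% intervals (green for the brightest probe set of a gene, grey for the others) and open diamonds for the value without mutant 8711. Intervals of Fzd6, both Fzd5 probe sets, the brightest Fzd4 probe set and Fzd3 1421157_at lie to one side of 0, and the diamonds move most for the dimmer Fzd2 probe sets and Fzd4 1419301_at.

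The other members of the Fzd4 branch were dim. The single Fzd9 probe set, for a receptor known from bone and the nervous system, had 15.3, 3.2 and 2.0 in mutant arrays 8711, 9216 and 9266, against 15, 13.3 and 2.6 in the controls. It lay under the filter and was not tested. The brighter Fzd10 probe set had 20.6, 29.3 and 41.1 in the mutants, against 12.7, 40.2 and 15.2 in the controls. These values overlapped, with a log2 difference of 0.51 (SE 0.51, 95% interval -0.70 to 1.72), 0.75 without mutant 8711, 0.22 without control 8711 and 0.99 without control 9216.

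Fzd1, Fzd2 and Fzd7 form the branch that is best known for beta-catenin signalling and for cell movements in early development. None of the 3 had groups that were separate. Fzd1 had 3281, 1423 and 1159 in mutant arrays 8711, 9216 and 9266, against 3022, 1800 and 2737 in the controls. Mutant 8711 was the highest of the 6 arrays and the other mutants were the lowest. The log2 difference was -0.49 (SE 0.42, adjusted p = 0.852) with all arrays and -0.94 (SE 0.24, limma p 0.00519, adjusted p = 0.288) without mutant 8711. Leaving out mutant 9266 moved it the other way, to -0.19 (limma p 0.67). Without mutant 8711, 2 of the 9 Frizzled genes were lower and 2 higher at an unadjusted p under 0.05, beside 4.06% and 5.46% of all genes, and 0 of the 9 passed adjustment, beside 0.0082% of all genes.

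Fzd2 differed least. Its brightest probe set had 654, 557 and 656 in mutant arrays 8711, 9216 and 9266, against 590, 561 and 733 in the controls. The ranges nearly coincided, with a log2 difference of -0.01 (SE 0.19, 95% interval -0.47 to 0.45), and -0.05 without mutant 8711. The dimmer Fzd2 probe sets, which list the same source sequence in the platform annotation, read otherwise in a single array. In 1418532_at the mutant values were 2.2, 276 and 438, against 454, 272 and 323 in the controls. In 1418533_s_at they were 29.9, 260 and 433, against 347, 287 and 338. Their log2 differences of -2.14 and -1.08 became 0.02 and 0.06 without mutant 8711, the array with the highest Gapdh ratio, and the part of RNA quality in these values was not tested.

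Fzd7 had 451, 360 and 567 in mutant arrays 8711, 9216 and 9266, against 432, 290 and 348 in the controls. The groups overlapped, since mutant 9216 lay below control 8711. The log2 difference was 0.36 (SE 0.26, 95% interval -0.25 to 0.97, adjusted p = 0.852), 0.36 without mutant 8711 and 0.19 without mutant 9266. Of the 18 tested Frizzled probe sets, 5 were higher and 13 lower in the mutants, and 8 and 10 without mutant 8711. For single genes an exact permutation test of 3 against 3 arrays gave 0.1 for Fzd4, Fzd5, Fzd6 and Fzd8. It gave 0.2 to 0.9 for the other 5. Separate groups always give 0.1, the smallest two-sided p of this test. The value therefore restates the separation of those genes, given above beside the shares of all genes.

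**Figure D3:**
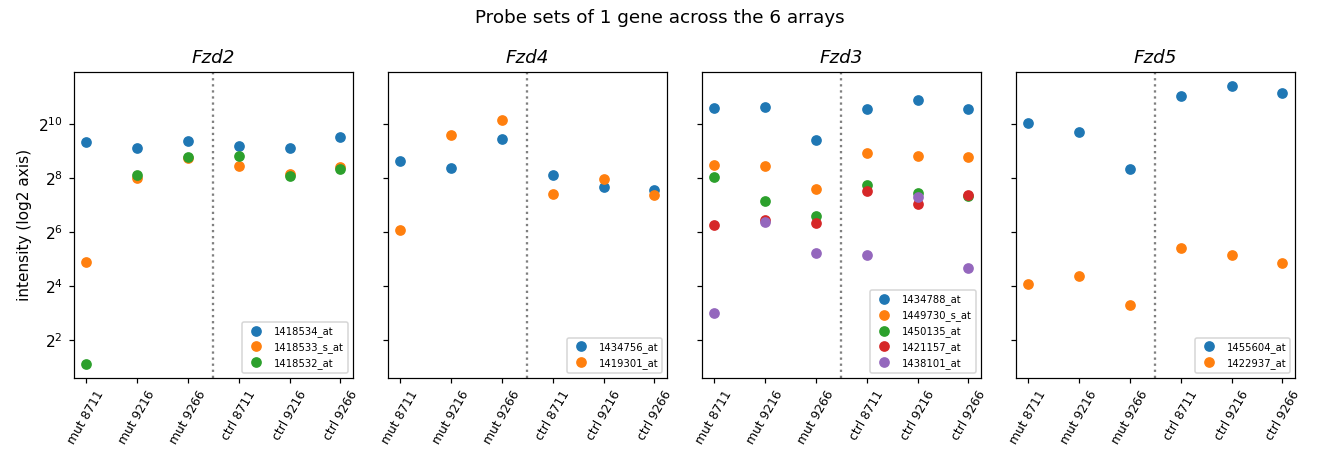
Intensity, on a log2 axis, of the tested probe sets of Fzd2, Fzd4, Fzd3 and Fzd5 in each mutant (left of the dotted line) and control array, 1 colour per probe set. In mutant 8711 the dimmer Fzd2 probe sets were at 2.2 and 29.9 and Fzd4 1419301_at at 67.4, while both Fzd5 probe sets were lower in all mutants.

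Markers of several cell types were read in the same arrays, and none passed adjustment in limma. Sums cover every listed marker that was read, tested or not. Of 9 pigment epithelium markers tested, 9 were higher in the mutants, and their summed intensity ran from 20991 to 34559 in the mutants and from 12854 to 14993 in the controls. Pmel was nearly level, at a log2 difference of 0.12. Its groups overlapped, with 2320, 5506 and 6871 in mutant arrays 8711, 9216 and 9266, against 4342, 4605 and 3409 in the controls. Of 6 neural retina progenitor markers tested, 6 were lower, with sums of 2601 to 2776 in the mutants and 4438 to 4774 in the controls. Among them Lhx2 was nearly level, at a log2 difference of -0.005, with means of 858 in the mutants and 856 in the controls. Sox2 had a difference of -0.99, with groups that overlapped. At an unadjusted limma p under 0.05, 3 of the 6 were lower, beside 2.52% of all genes. Of 8 periocular mesenchyme markers tested, 8 were higher, with sums of 1510 to 1941 in the mutants and 608 to 1388 in the controls. Only 2 of these 8 had an unadjusted limma p under 0.05, Prrx1 and Twist1. The groups overlapped for Foxc2, Prrx2, Pdgfra, Col1a1 and Col3a1. Twist1 was dim in the controls, at 15, 7 and 18.5, against 42.7, 40.8 and 55.5 in the mutants. It was tested only because the mutant arrays were brighter, so its direction was built in. Of 6 vascular endothelium markers 3 were higher and 3 lower, with overlapping sums of 238 to 414 in the mutants and 306 to 616 in the controls. Of 7 lens and surface ectoderm markers 2 were higher and 5 lower, with sums of 1797 to 3641 in the mutants and 2143 to 3356 in the controls. No listed marker was at 0 in all arrays. Fzd6 and Fzd4 were higher, as were the mesenchyme markers and the pigment epithelium ones apart from Pmel. Fzd5 was lower, as were the retinal markers apart from Lhx2. The part of tissue makeup in the Frizzled values was not tested.

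Genes were also ranked by how closely their pattern over the 6 arrays followed that of a Frizzled gene, as the root mean square distance between log2 values centred on each gene's mean. Among 12281 other genes, those nearest to Fzd6 were 1700019D03Rik (0.07), Cobll1 (0.09) and the growth factor gene Pdgfc (0.10). Pdgfc had 1120, 945 and 1267 in mutant arrays 8711, 9216 and 9266, against 399, 512 and 409 in the controls. Nearest to Fzd5 were the transcription factor genes Myb (0.14), Vax1 (0.23) and Crx (0.28). Vax1, of the optic stalk, had 323, 245 and 80.1 in the mutants, against 733, 595 and 559 in the controls, with mutant 9266 lowest as for Fzd5. Nearest to Fzd4 were the cation exchanger gene Slc24a3 (0.07), Ccdc141 (0.13) and Plbd1 (0.13). With 6 arrays such likeness is a description.

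Around the receptors, 68 of 94 listed Wnt pathway genes were tested. None passed adjustment (0 of 68), 32 were higher and 36 lower in the mutants, and the median log2 difference was -0.01. At an unadjusted limma p under 0.05, 5 were higher and 9 lower, beside the 4.4% and 2.52% of all genes given above. Of 19 Wnt ligands 7 were tested, and 5 of the 7 were higher, with a median of 0.46. Wnt9a and Wnt6 had control means of 14.7 and 14.8, under the filter level of 15.1. They passed the filter only through their higher mutant values, so their direction was favoured by the filter. Wnt5a, a ligand of Ror2 and Frizzled receptors in polarity signalling, had 101, 69.0 and 117 in mutant arrays 8711, 9216 and 9266, against 56.3, 56.1 and 56.2 in the controls, a log2 difference of 0.71 (SE 0.30). Wnt9a had 0.96 (SE 0.49), with mutant 9216 below the controls.

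Among 9 co-receptors and partners the median was -0.01, or -0.085 without mutant 8711, with 4 higher and 5 lower. Among the higher ones, Adgra2, with 24.0, 2.2 and 24.8 in the controls, passed the filter on mean log2 only through its mutant values. Ror2, a receptor for Wnt5a that works with Frizzled proteins, had 87.0, 89.5 and 75.4 in mutant arrays 8711, 9216 and 9266, against 291, 258 and 242 in the controls. Reck, which with Adgra2 helps Frizzled receptors read Wnt7 ligands, had a log2 difference of 0.61 (SE 0.22). Of 7 genes of receptor turnover and R-spondins, 5 were higher, with a median of 0.48. Rspo2, a secreted protein that keeps Frizzled receptors on the cell surface by removing the ligases Rnf43 and Znrf3, had 123, 138 and 98.4 in the mutants, against 28.0, 16.7 and 15.9 in the controls, a log2 difference of 2.5 (SE 0.34). Its relative Rspo3 had a difference of 1.69 (SE 0.28). Both had separate groups, with adjusted limma p of 0.356 and 0.373.

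Secreted antagonists had a median of -0.04 over 7 genes, 3 higher and 4 lower, and 0.35 without mutant 8711. Sfrp2 and Frzb, which carry a Frizzled-like cysteine-rich domain and bind Wnts outside the cell, had log2 differences of -1.36 (SE 0.41) and -0.80 (SE 0.30). The related Sfrp1 and Sfrp4 went the other way, at 0.91 (SE 0.39) and 0.39 (SE 0.38). The 19 intracellular transducers had a median of -0.04, or -0.0045 without mutant 8711, 7 higher and 12 lower, with Csnk1e, a kinase that acts on Dishevelled, at -0.93 (SE 0.39) and Apc2 at -0.58 (SE 0.37). The 11 planar polarity partners had a median of -0.11, 4 higher and 7 lower, with the cadherin gene Celsr2 at -0.78 (SE 0.23) and Prickle2 at 0.60 (SE 0.31). The 8 canonical target genes went both ways, 4 higher and 4 lower, with a median of 0.13, or 0.041 without mutant 8711. Tnfrsf19 had a log2 difference of 1.44 (SE 0.31) and Ccnd1, also an FGF target, of -1.55 (SE 0.44).

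**Figure D4:**
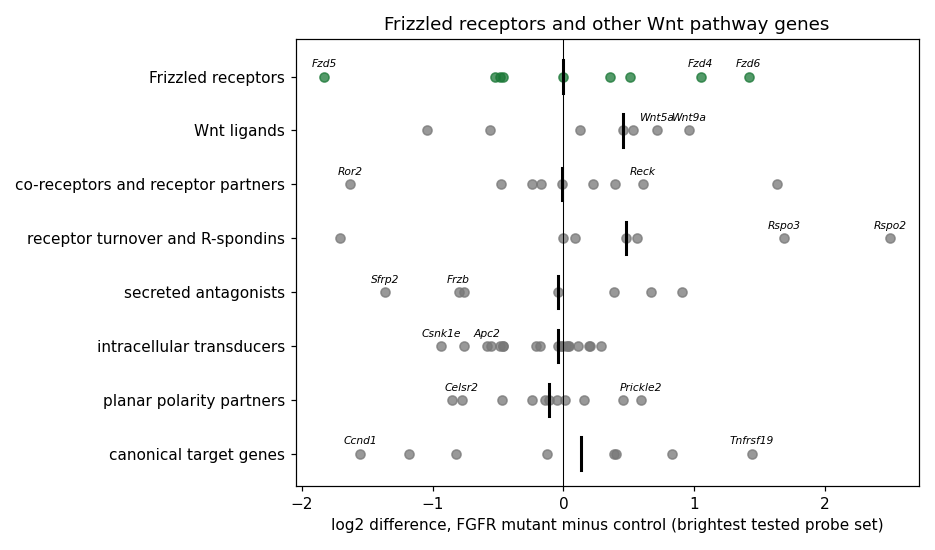
Log2 difference, FGFR mutant minus control, of the brightest tested probe set of each Frizzled gene (green) and each gene of 7 Wnt pathway lists (grey), with a black bar at each list's median and names at the 3 Frizzled genes or 2 list members with the smallest limma p. The Frizzled genes spread from -1.83 to 1.42 around a median of -0.01.

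The direction of 8 of the 9 tested genes held under every alternative run, and Fzd2 was the exception. Runs that could alter a direction changed the added value or normalization, left out arrays, or averaged the probe sets of genes with several tested. Other filters, other limma settings and a replicate block by title number could not, since each gene kept its probe set and group means. Fzd10 fell under the stricter filter and had 15 alternatives in place of 16. Fzd6 ran from 1.23 to 1.56, Fzd5 from -2.24 to -1.32 and Fzd4 from 0.73 to 1.30. The unadjusted limma p stayed under 0.05 in all 16 for Fzd6 and Fzd5 and in 14 of 16 for Fzd4, and with each gene held to its brightest probe set over all arrays the smallest adjusted p was 0.163. The second Fzd4 probe set, the brighter one without mutant 8711, had the 0.13 given above.

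**Figure D5:**
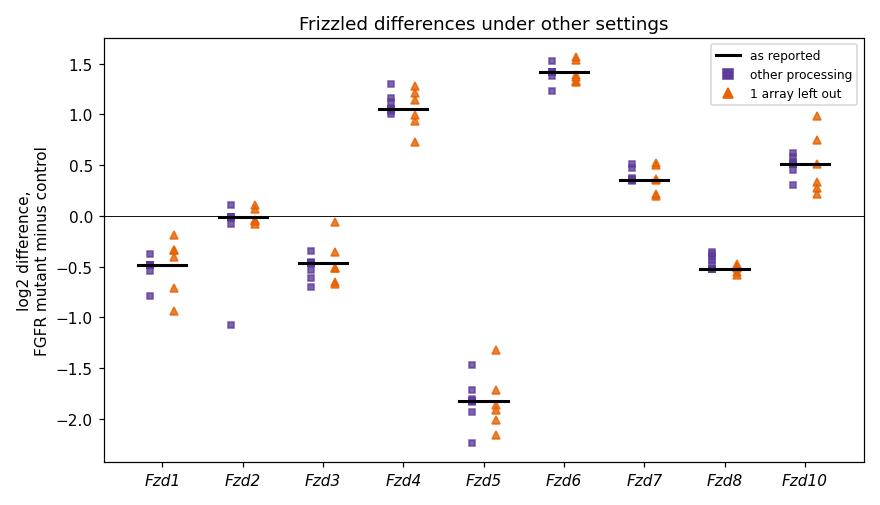
Log2 difference, FGFR mutant minus control, of each tested Frizzled gene as reported (black bar), under other processing (purple squares) and with 1 array left out (orange triangles). Fzd4 and Fzd6 stay above 0 and Fzd5 below it, while Fzd2 crosses 0.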

How the data were processed

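Affymetrix arrays of 3 FGFR mutant and 3 control samples were compared. The authors' deposited values are linear intensity per probe set, made with MAS5 per the submitters' processing notes, whose version and settings are not given in the sources used here. Their 2% trimmed mean was 149 or 150 in every array, so no normalization was added. With 3 arrays a group, array number limits precision.

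Of 45101 probe sets 64 were controls. The other 45037 had 1 symbol (34945), several (932) or none (9160), and genes were named from single symbols. Intensities were put on a log2 scale after adding 1.7, their 10th percentile. Probe sets under the 40th percentile of mean log2 (15.1 in intensity) were not tested. A gene is its tested probe set with the highest mean log2. Groups were compared with limma 3.58.1 (trend, robust; statmod 1.5.0; R 4.3.3), with Benjamini-Hochberg adjustment over all 27022 probe sets, and the fit was tested on simulated data. Promoters came from RefSeq. Figures used Python 3.11.15 and matplotlib 3.10.9.

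The members, lists and alternatives were chosen with earlier results of these data known. Named were all Frizzled genes, the 2 members of each pathway list with the smallest p, and the 3 genes nearest in pattern to the 3 Frizzled genes with the smallest p. Samples of the same title number did not deviate together in every case (correlations 0.05, 0.48 and -0.11), so the numbers were not used as pairs.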

Additional observations from a re-analysis of the deposited data

How the results depend on the processing

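Fzd2 was the member whose sign turned. Its difference was 0.10 with median centring, a setting under which the median of all genes was 0.14, against 0.03 as reported, and -0.084 to 0.11 with 1 array left out. It was -1.08 as the mean of all Fzd2 probe sets, which takes in those that were low in mutant 8711. At an unadjusted limma p under 0.05, 2 Frizzled genes were lower with eBayes without trend or robust and 2 with both 8711 arrays left out, against 1 as reported. With the mean of all probe sets 1 was higher, against 2. Leaving out 1 array in turn gave 1 to 2 lower (2 without mutant 8711) and 1 to 2 higher (1 without control 9266, where Fzd4 had an unadjusted p of 0.0585). Over all probe sets 0 to 1 passed adjustment with 1 array left out and 1 with both 8711 arrays left out. With the title number as a replicate block, which cannot alter a difference of means in this balanced design, 0 passed, and the unadjusted limma p of Fzd6 was 0.0024 (adjusted p = 0.765), against 3.89e-04 without the block. The other alternatives left these counts within 1.5 times. For these results, the cause was not tested. Low signal limits Fzd8, Fzd9 and Fzd10, and 3 arrays a group limit all.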
